A study of Mus musculus and Rattus norvegicus with 35 samples.

Results

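Protocadherins are cadherin-like adhesion proteins of the cell surface, and most of them are best known from neurons. The members described here are all genes of the mouse expression table whose symbol starts with Pcdh, 36 of 24601 genes, together with the circular RNAs (circRNAs, closed loops made by back-splicing) assigned to these host symbols, 28 of 28482. Of the genes, 24 were clustered (2 Pcdha, 21 Pcdhb and 1 Pcdhg symbol) and 12 were non-clustered (Pcdh1, Pcdh7, Pcdh8, Pcdh9, Pcdh10, Pcdh11x, Pcdh12, Pcdh15, Pcdh17, Pcdh18, Pcdh19 and Pcdh20). In rat, 53 of 22409 genes carried such a symbol, 41 of them clustered and 12 non-clustered, with 21 of 18075 circRNAs.

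The study profiled total RNA of C57BL/6 mice and Sprague Dawley rats. Hippocampus was taken at embryonic day 18 (E18) and at postnatal days 1, 10 and 30 (P1, P10 and P30), with 2 libraries an age. Whole brain, heart, liver, lung and testis had 1 library each at 14 weeks and 2 at 20 weeks. Single libraries covered mouse hippocampal synaptosomes and homogenate at 4 weeks, CA1 neuropil and CA1 somata of 4-week mice, the same pair from 4-week rats, and poly(A)-selected RNA of 14-week brain. Rat hippocampal neurons cultured for 28 days in vitro received 40 µM bicuculline for 12 h or water as control, with 2 libraries each. Every library other than the poly(A)-selected one was depleted of ribosomal RNA. The labels name no genetic alteration, and they do not say whether replicates came from separate animals or cultures, so p-values measure the spread between libraries, which may be technical.

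The clustered genes lie in tandem arrays. In the alpha and gamma arrays a promoter of each variable exon starts a transcript that is spliced to constant exons, whereas each beta gene is a single exon, and individual neurons choose different sets of isoforms, which serve in self-recognition of neurites. The non-clustered genes stand alone and include the delta-1 group (Pcdh1, Pcdh7, Pcdh9 and Pcdh11x) and the delta-2 group (Pcdh8, Pcdh10, Pcdh17, Pcdh18 and Pcdh19), several of which recruit the WAVE complex that drives actin branching. Because variable exons share constant exons, and the exons counted for each symbol are not stated here, the values of Pcdha3, Pcdha4 and Pcdhga9 are uncertain as levels of single isoforms. The circRNAs assigned to Pcdha4 spread over mm9 chr18:37089652-37319007 and those assigned to Pcdhga9 over chr18:37866794-37968631, stretches of 229356 and 101838 bases.

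Expression is given as TPM (a share of all transcripts in a library, corrected for gene length), and differences as the change in log2(TPM + 1), which understates the change of genes near 0. Libraries listed 11728 to 15605 mouse genes at 1 TPM or more. In the second P30 library 3 gene models (Gm16869, Gm10718 and Gm10800) held 9.54% of all TPM, against 0.0764% in the first P30 library, which lowers every other value of that library by about that share. The labelled tissues carried their markers: 4 of 4 markers each of heart, liver, lung and testis were lower in brain than in the other tissues, and 7 of 7 neuronal ones were higher.

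Promoters of 9 non-clustered genes were matched by symbol in RefSeq's GRCm38.p6 annotation, in windows from 250 bases before to 50 after the transcript start. The 4 shown are those on which the results below turn: Pcdh20 and Pcdh9 rose with hippocampal age, Pcdh18 fell, and Pcdh8 had the largest difference under bicuculline among the rat members, whose own promoter was not analysed here. Capitals mark CCAAT (or ATTGG on the other strand) and TATAAA (or TTTATA).
Pcdh20, chr14:88471347-88471646, minus strand: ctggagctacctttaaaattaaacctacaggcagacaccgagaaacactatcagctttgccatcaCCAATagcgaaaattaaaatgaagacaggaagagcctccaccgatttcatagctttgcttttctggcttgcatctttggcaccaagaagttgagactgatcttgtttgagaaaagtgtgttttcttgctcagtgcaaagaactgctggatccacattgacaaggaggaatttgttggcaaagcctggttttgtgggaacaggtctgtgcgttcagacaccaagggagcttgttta
Pcdh9, chr14:93890630-93890929, minus strand: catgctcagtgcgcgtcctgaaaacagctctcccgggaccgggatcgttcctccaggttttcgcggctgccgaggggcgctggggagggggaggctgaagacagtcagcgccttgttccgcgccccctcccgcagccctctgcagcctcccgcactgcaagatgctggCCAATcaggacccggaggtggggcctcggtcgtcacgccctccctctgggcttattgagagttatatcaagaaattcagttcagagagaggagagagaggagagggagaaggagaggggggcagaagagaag
Pcdh18, chr3:49757267-49757566, minus strand: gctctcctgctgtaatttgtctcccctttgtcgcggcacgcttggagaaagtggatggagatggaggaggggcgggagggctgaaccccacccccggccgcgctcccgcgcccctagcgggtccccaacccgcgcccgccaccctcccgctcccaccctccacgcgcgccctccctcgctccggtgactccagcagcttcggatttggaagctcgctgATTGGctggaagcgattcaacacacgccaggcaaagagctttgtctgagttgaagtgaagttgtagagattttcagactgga
Pcdh8, chr14:79771263-79771562, minus strand: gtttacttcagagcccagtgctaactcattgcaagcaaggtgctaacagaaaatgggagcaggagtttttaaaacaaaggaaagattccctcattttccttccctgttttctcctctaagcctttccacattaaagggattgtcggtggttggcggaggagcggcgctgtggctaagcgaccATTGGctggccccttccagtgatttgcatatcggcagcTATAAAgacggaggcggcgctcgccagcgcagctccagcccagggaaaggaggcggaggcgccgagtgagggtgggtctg

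The windows differed in composition. Pcdh20 had 4 CpG dinucleotides and 43.7% G and C, whereas Pcdh9 had 18 and 62.7%, Pcdh18 23 and 63.0%, and Pcdh8 14 and 54.3%; the median over 32851 windows was 7 CpG. TATAAA in either direction was found 30 bases before the start of Pcdh8 and 33 bases before that of Pcdh15, and in 13.6% of all windows. CCAAT in either direction occurred in 8 of the 9 genes, all but Pcdh7, and in 37.4% of all windows. Neither motif overlapped the other. Pcdh9, which rose with age, and Pcdh18, which fell, both lay above the median CpG count, and a motif match describes letters only.

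In the developing hippocampus most non-clustered genes changed with age, and most clustered genes did not pass the test. Between E18 and P30, 11 of the 35 members that passed the expression filter (at least 1 TPM in 2 of the 8 libraries; Pcdhb1 did not) rose and 3 fell at an adjusted p under 0.05 (limma on log2(TPM + 1), Benjamini-Hochberg over 15444 genes). Over all those genes 29.5% rose and 26.8% fell. Among the non-clustered genes 8 of 12 rose and 2 fell, with a median difference of 0.84; among the clustered genes 3 of 23 rose and 1 fell, with a median of -0.07, beside 0.01 over all genes. Under a scaling of all libraries to equal medians, which moved the median of all genes by over 0.1 to -0.13, the split was 10 higher and 7 lower, 5 of those lower being clustered. Without the expression filter 7 members rose. With the replicate number as a block in the fit more than 3 members fell.

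**Figure D1:**
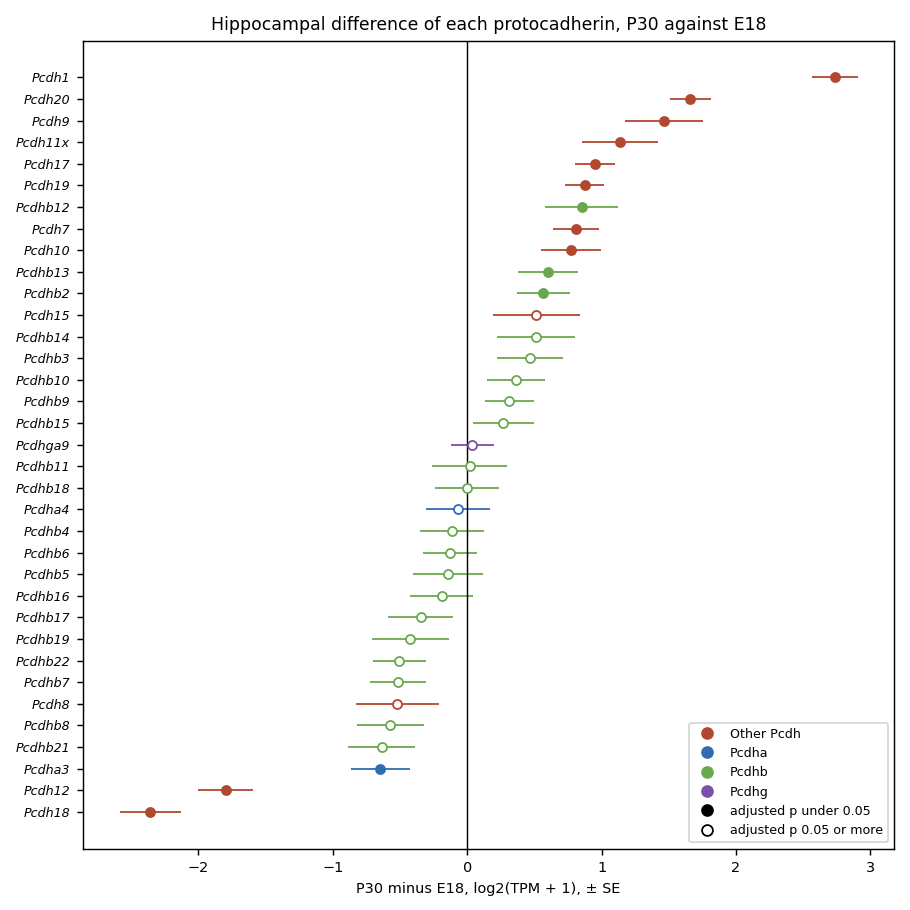
Difference between P30 and E18 hippocampus on the log2(TPM + 1) scale (horizontal axis) for each of the 35 members tested, with the standard error as a bar, coloured by gene class; filled points have an adjusted p under 0.05. The non-clustered genes occupy both ends, at 2.74 for Pcdh1 and -2.36 for Pcdh18, while the clustered genes lie between -0.65 and 0.85.

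Of the delta-1 genes, all 4 rose. Pcdh1, an adhesion protein also known from airway epithelium, had 13.1 and 15.7 TPM at E18, 20.2 and 15.7 at P1, 31.0 and 29.9 at P10, and 105 and 97.6 at P30. Both P30 libraries stood above every younger library, and most of the change fell between P10 and P30. Its difference was 2.74 ± 0.17 (SE; limma adjusted p = 1.53e-06), the largest of the family.

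Pcdh9 had 40.7 and 58.9 TPM at E18, 40.3 and 78.8 at P1, 93.6 and 121 at P10, and 130 and 144 at P30. The P10 and P30 libraries were all above the E18 and P1 libraries, although P1 overlapped E18. P30 exceeded E18 by 1.47 ± 0.29 (SE; limma adjusted p = 0.00214), and Pcdh9 was the most abundant non-clustered member at P30.

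The X-linked Pcdh11x had 4.56 and 9.23 TPM at E18, 10.3 and 11.5 at P1, 27.6 and 35.7 at P10, and 13.5 and 18.0 at P30. It peaked at P10 and came down by P30, the only non-clustered gene that passed the test upward in one step and downward in the next. Pcdh7, known to bind the phosphatase PP1, had 46.1 and 43.6 TPM at P30, against 23.4 and 27.0 at E18, with P1 and P10 in between apart from 46.3 in 1 P10 library. P30 exceeded E18 by 0.81 for Pcdh7 (limma adjusted p = 0.003) and by 1.14 for Pcdh11x (limma adjusted p = 0.00712), whose call was lost without the first E18 library, at 0.70, and without the second P30 library, at 0.94.

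**Figure D2:**
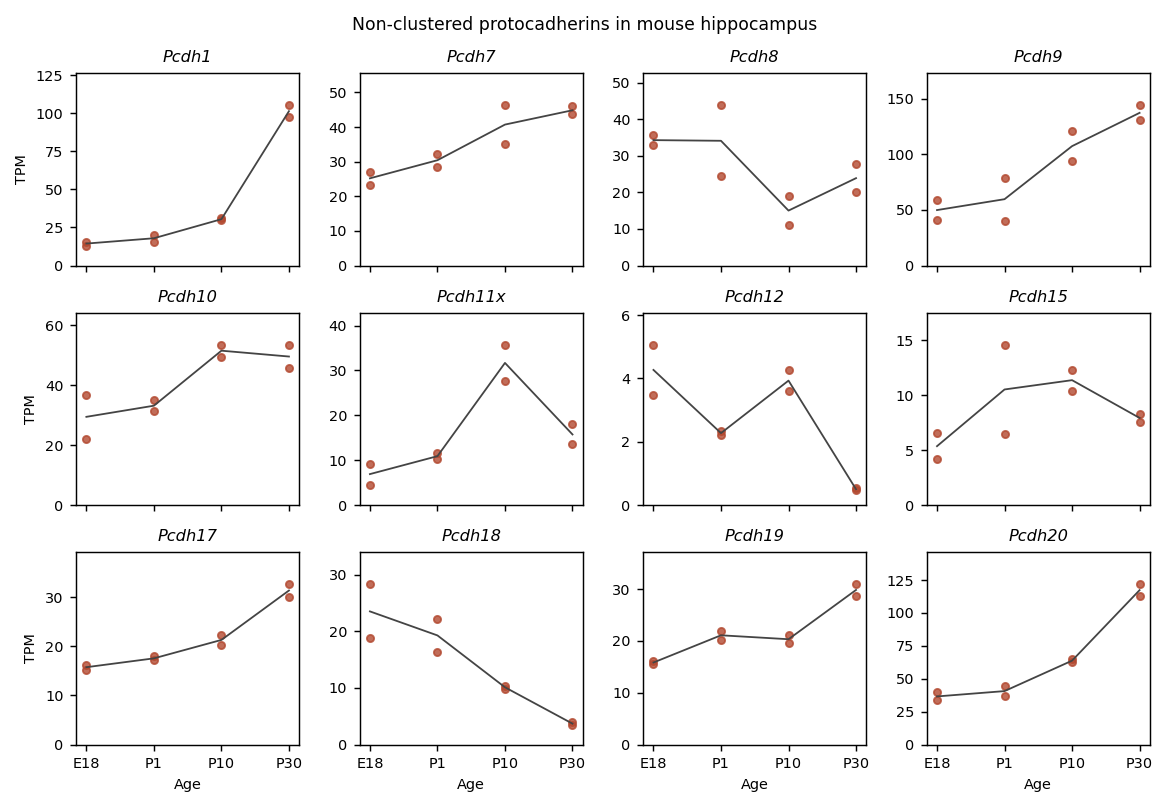
TPM of the 12 non-clustered protocadherins (vertical axes, each from 0) in hippocampus at E18, P1, P10 and P30. Points are libraries, 2 an age, and lines join their means; Pcdh1, Pcdh9 and Pcdh20 are highest at P30, Pcdh11x at P10, and Pcdh18 at E18.

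The delta-2 genes went different ways. Pcdh17 and Pcdh19, both partners of the WAVE complex, and PCDH19 also a human epilepsy gene, rose together over a narrow range. Pcdh17 had 15.2 and 16.3 TPM at E18, 17.9 and 17.2 at P1, 20.3 and 22.3 at P10, and 32.6 and 30.1 at P30, while Pcdh19 had 15.5 and 16.2 at E18, 21.9 and 20.3 at P1, 19.5 and 21.2 at P10, and 28.8 and 30.9 at P30. In both genes the P30 libraries stood above all others, by 0.95 over E18 for Pcdh17 (limma adjusted p = 0.000511) and 0.87 for Pcdh19 (limma adjusted p = 0.000825).

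Pcdh10, which also recruits the WAVE complex, had 53.4 and 45.7 TPM at P30, against 22.0 and 36.8 at E18, and its P10 libraries at 49.5 and 53.5 were level with P30. Its difference of 0.77 (limma adjusted p = 0.0143) was lost without the first E18 library, at 0.41, and without the first P30 library, at 0.66. Pcdh8, known in rat as an activity-induced gene, had 35.7 and 32.9 TPM at E18, 43.8 and 24.4 at P1, 18.9 and 11.1 at P10, and 27.8 and 20.0 at P30. Its P10 libraries were the lowest, and P30 against E18 did not pass (-0.52, limma adjusted p = 0.177).

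Pcdh18, whose mouse protein binds the adaptor Dab1, was the member that fell most, with 18.8 and 28.3 TPM at E18, 16.4 and 22.2 at P1, 9.89 and 10.4 at P10, and 3.90 and 3.49 at P30. The P10 and P30 libraries each lay below all younger ones. P30 was lower than E18 by -2.36 ± 0.23 on the log2 scale (SE; limma adjusted p = 2.25e-05). Col1a1 and Col1a2, collagens of the list of choroid plexus and meninges markers, fell beside it, at 3.32 and 3.83 TPM for Col1a1 in P30 libraries against 7.98 and 7.84 in E18 libraries; of the 6 markers of that list 2 rose and 2 fell, its summed level was 454 to 1425 TPM at P30 against 131 to 243 at E18, none was at 0, and their part in the result was not tested.

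Among the remaining non-clustered genes, Pcdh20 had 39.7 and 33.5 TPM at E18, 36.9 and 44.3 at P1, 65.0 and 62.5 at P10, and 122 and 113 at P30. It rose in both later steps, and P30 exceeded E18 by 1.66 ± 0.15 (SE; limma adjusted p = 1.6e-05). Pcdh15, a component of the tip links of hair cells in the inner ear, had 7.56 and 8.30 TPM at P30, against 6.55 and 4.17 at E18, with 14.6 in 1 P1 library, and did not pass (0.51, limma adjusted p = 0.205).

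Pcdh12, an endothelial protocadherin, had 3.48 and 5.06 TPM at E18, 2.21 and 2.33 at P1, 3.61 and 4.26 at P10, and 0.53 and 0.47 at P30. Both P30 libraries were below every other one, by -1.80 ± 0.21 on the log2 scale against E18 (SE; limma adjusted p = 7.17e-05). Of 7 endothelial and mural markers 3 fell (Cdh5, Cldn5 and Kdr) and 1 rose (Flt1), with a summed level of 198 to 233 TPM at P30 against 282 to 305 at E18 and none at 0; their part in the result was not tested. In bulk tissue fewer cells of a type and less RNA per cell cannot be told apart, and this holds for every difference given here.

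Most clustered genes did not pass between E18 and P30, though 8 of 23 had an unadjusted p under 0.05 by limma. Not passing does not show that a level was flat. Pcdhb17, the most abundant beta gene, had 15.5 and 20.8 TPM at E18, 12.1 and 17.8 at P1, 11.4 and 16.2 at P10, and 14.8 and 13.1 at P30, and its ages overlapped (-0.35, limma adjusted p = 0.25). Pcdhb22 (-0.51, limma adjusted p = 0.0519) and Pcdhb9 (0.31, limma adjusted p = 0.172) did not pass either. The Pcdhb genes had a median of 6.07 and 4.78 TPM in the P30 libraries and 3.99 and 5.45 TPM in the E18 libraries, and their summed level was 121 and 112 TPM at P30 and 109 and 137 TPM at E18. Over the 12 non-clustered genes the sum was 572 and 555 TPM at P30 and 239 and 284 TPM at E18.

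Pcdhga9 had 165 and 167 TPM at P30 and 137 and 191 at E18, and Pcdha4 had 73.9 and 73.1 at P30 and 60.8 and 97.6 at E18. For both symbols the E18 libraries lay on either side of the P30 libraries, and neither passed (Pcdhga9 0.04, limma adjusted p = 0.855; Pcdha4 -0.07, limma adjusted p = 0.83). The 4 clustered genes that passed were Pcdhb12 (7.88 and 6.39 TPM at P30 against 2.84 and 4.25 at E18; 0.85, limma adjusted p = 0.0238), Pcdhb13 (3.36 and 3.39 against 1.80 and 1.95; 0.60, limma adjusted p = 0.0422), Pcdhb2 (2.73 and 2.00 against 1.21 and 1.31; 0.57, limma adjusted p = 0.0351, named after its value was seen) and Pcdha3 (5.01 and 4.86 against 7.09 and 9.65; -0.65, limma adjusted p = 0.0311). Each of the 4 was lost in 3 or more of the fits without 1 E18 or P30 library.

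Of the 14 members called between P30 and E18, 8 were called in each of the 8 fits that left out 1 library: Pcdh1, Pcdh7, Pcdh9, Pcdh17, Pcdh19 and Pcdh20 higher, Pcdh12 and Pcdh18 lower. Without the first E18 library 6 members were higher, and without the first P30 library 7, against 11 with all libraries; without either P1 library 6 were lower, and without the second E18 or either P30 library 2, against 3. Cell type markers moved on a larger scale: 6 of 6 oligodendrocyte, 6 of 6 astrocyte and 5 of 5 microglial markers rose, 7 of 8 progenitor and immature neuron markers fell, and the summed oligodendrocyte level was 9035 to 10200 TPM at P30 against 39.8 to 40.1 at E18. Of 7 neuronal markers tested 6 rose and 1, Stmn2, fell. The neuronal list summed to 3708 to 4176 TPM at P30 against 1431 to 1558 at E18. The part of all these markers in the rise of the non-clustered genes was not tested.

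Step by step, no member passed between E18 and P1, where 1.2% of all genes rose and 0.524% fell (limma; 4 members had an unadjusted p under 0.05). From P1 to P10, 4 non-clustered genes rose and 2 fell, while 0 of 23 clustered genes passed (2 at an unadjusted p under 0.05); over all genes 17.2% rose and 18.0% fell. The 4 that rose were Pcdh11x (1.45), Pcdh9 (0.90), Pcdh1 (0.74) and Pcdh20 (0.64), and the 2 that fell were Pcdh8 (-1.12) and Pcdh18 (-0.85). Only Pcdh11x was called whichever library was left out; without the first or the second P10 library the count that rose was 2, and the count that fell was 1 without the first P10 or the second P1 library and 0 without the second P10 library. Without the expression filter 2 rose and 0 fell.

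From P10 to P30 again 4 non-clustered genes rose and 3 fell and no clustered gene passed in the fit by limma (2 at an unadjusted p under 0.05), beside 17.0% and 12.5% of all genes. Pcdh1 (1.70), Pcdh20 (0.87), Pcdh17 (0.54) and Pcdh19 (0.53) rose, and Pcdh12 (-1.72), Pcdh18 (-1.25) and Pcdh11x (-0.97) fell. Pcdh1, Pcdh12, Pcdh18 and Pcdh20 were called whichever library was left out, whereas Pcdh11x, Pcdh17 and Pcdh19 were lost without any 1 of the P10 or P30 libraries, leaving 2 higher and 2 lower each time. With libraries scaled to equal medians the split was 2 higher and 6 lower, 3 of those lower being clustered. These steps share libraries with each other, so their values are set side by side only.

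Genes that work with protocadherins, from lists chosen with earlier results known, moved in part. Of 18 cohesin, CTCF and chromatin genes known for control of the clustered promoters, 8 fell between E18 and P30 (Ctcf, Smc1a, Smc3, Rest, Dnmt1, Dnmt3b, Setdb1 and Smchd1) and none rose, with a median of -0.52. Of 16 cytoplasmic partners 7 rose (Abi1, Abi2, Cyfip2, Nckap1 and Wasf1 of the WAVE complex, Pak1 and Ptk2b) and Ctnnb1 fell. Among 17 classical cadherins and catenins 7 rose and 4 fell, and among 10 tested Fat, Dachsous, Celsr and calsyntenin genes 5 rose and 4 fell. Over all genes 29.5% rose and 26.8% fell.

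Across adult tissues nearly every member was higher in brain than in the average of the other organs. Against the mean of heart, liver, lung and testis, 34 of 36 members were higher in brain and 1 was lower (limma over 18966 genes with at least 1 TPM in 3 of 15 libraries); over all genes 45.4% were higher and 28.0% lower. The median difference was 3.06 for the 12 non-clustered and 2.13 for the 24 clustered genes, beside 0.34 over all genes. Adding 1 TPM limits the difference that a gene with few TPM in brain can reach. The Pcdhb genes had medians of 5.86 to 7.06 TPM in brain libraries, so these class medians also depend on level. The median of all genes moved to -0.55 under scaling to equal medians, where 32 members were higher and 1 lower.

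**Figure D3:**
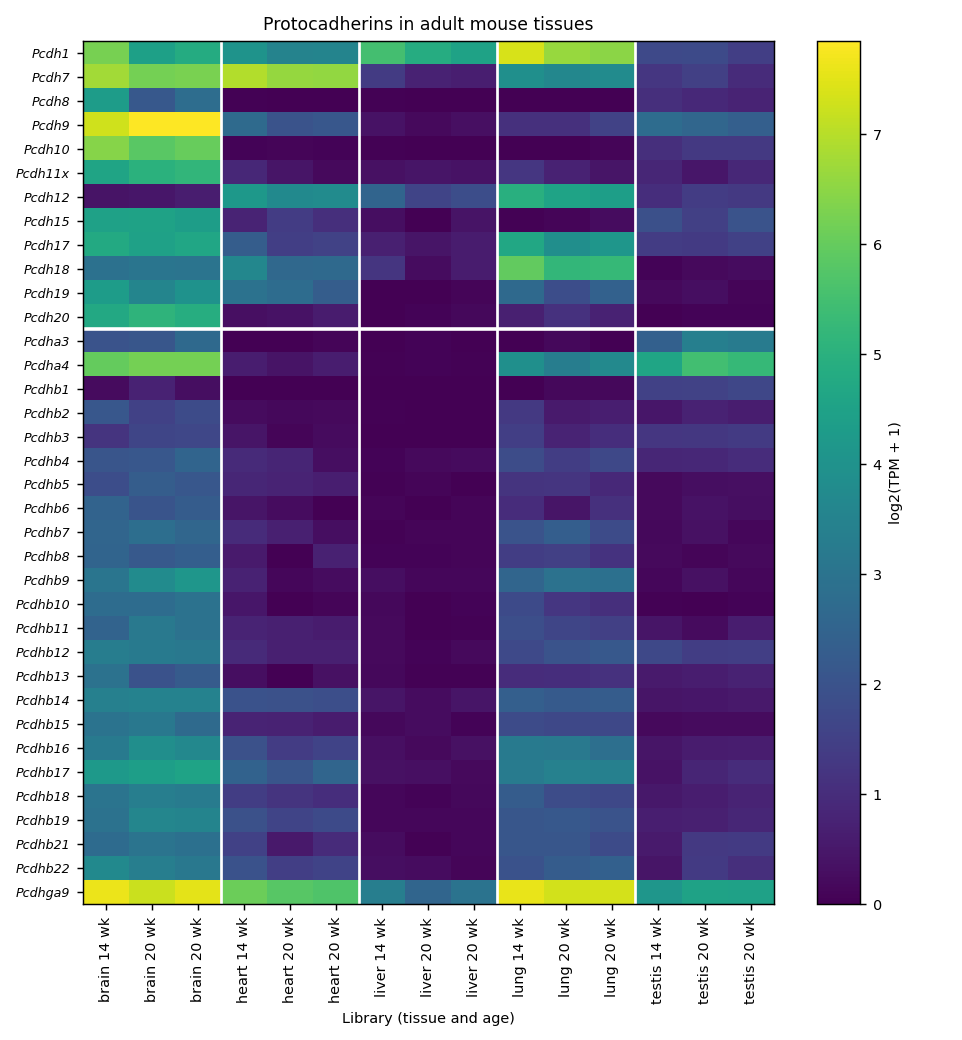
Level of each of the 36 members as log2(TPM + 1) (colour) in the 15 adult libraries, brain at the left; the 12 non-clustered genes are above the horizontal white line and the 24 clustered genes under it. Pcdh9 and Pcdh10 are high in brain and near 0 in liver, Pcdh12 is low in brain, and Pcdhga9 overlaps between brain and lung.

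The non-clustered genes held the largest differences. Pcdh9 had 154, 229 and 229 TPM in brain, against a lowest of 0.151, a median of 2.46 and a highest of 5.84 TPM in the other 12 libraries (6.06 ± 0.18, SE; limma adjusted p = 2.05e-12). Pcdh10 had 84.5, 56.3 and 63.7 TPM in brain and at most 1.48 TPM elsewhere, in testis (5.75 ± 0.12, SE; limma adjusted p = 7.47e-14). No brain library overlapped any other for these genes, nor for Pcdh20 (25.5 to 33.2 TPM in brain and 0.0198 to 1.17 elsewhere), Pcdh11x (22.7 to 35.0 and 0.150 to 1.35) or Pcdh15 (19.7 to 21.8 and 0 to 3.06). Pcdh19 had 19.4, 10.9 and 15.0 TPM in brain and at most 6.78 elsewhere, in heart (2.66, limma adjusted p = 2.47e-08), and Pcdh8 had 19.3, 3.44 and 5.93 in brain and at most 1.08 elsewhere, in testis (2.86, limma adjusted p = 8.27e-07).

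Some non-clustered genes were as high in another organ. Pcdh7 had 108, 72.9 and 76.9 TPM in brain, against 121, 96.1 and 95.1 in heart, which overlapped (-0.29, limma adjusted p = 0.306), and it was at 0.587 to 14.1 TPM in liver, lung and testis. Pcdh1 had 74.4, 21.0 and 27.2 TPM in brain, against 166, 98.5 and 88.9 in lung, and was lower in brain than in lung (-1.67, limma adjusted p = 0.00251). In liver Pcdh1 had 44.2, 27.8 and 21.7 TPM, which overlapped brain and did not pass. Its call against all 4 tissues (0.89, limma adjusted p = 0.0212) was lost without the 14-week brain library, at 0.35, and turned to -0.36 when libraries were scaled to equal medians.

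Pcdh18 had 6.58, 7.26 and 7.19 TPM in brain, against 61.5, 35.6 and 37.1 in lung (-2.47, limma adjusted p = 7.97e-06). In heart it had 11.4, 5.30 and 5.47 TPM, which overlapped brain and did not pass, and in liver and testis at most 1.34. Against all 4 tissues it was higher in brain by 0.67 (limma adjusted p = 0.0234), a call lost without either 20-week brain library. Pcdh17 had 26.1, 21.4 and 24.2 TPM in brain, against 24.9, 13.6 and 16.3 in lung, and did not pass there (0.41, limma adjusted p = 0.186). Pcdh12 was the only member lower in brain, with 0.343 to 0.540 TPM, against 20.2 to 30.1 in lung, 12.3 to 17.2 in heart, 2.07 to 4.73 in liver and 1.03 to 1.63 in testis (-2.44 against all 4, limma adjusted p = 5.48e-08). The 7 endothelial and mural markers summed to 180 to 234 TPM in brain, 1485 to 2076 in lung and 763 to 954 in heart. In liver they summed to 49.7 to 113 TPM and in testis to 17.45 to 20.75, both below brain. Against all 4 tissues 3 of the 7 were higher in brain and 3 lower. The part of these markers in the values of Pcdh1, Pcdh12, Pcdh17 and Pcdh18 was not tested.

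Lung was also the tissue nearest to brain for the beta genes and Pcdhga9. Pcdhga9 had 195, 149 and 183 TPM in brain, against 191, 159 and 160 in lung, and these overlapped (0.04, limma adjusted p = 0.909). The median of the 21 Pcdhb genes was 5.86 to 7.06 TPM in brain libraries, 2.24 to 2.52 in lung, 0.524 to 0.807 in heart, 0.369 to 0.559 in testis and 0.0621 to 0.120 in liver, with no overlap between brain and any other tissue. Pcdhb17 led the beta genes with 17.7, 20.0 and 22.6 TPM in brain, against 8.69 to 9.99 in lung and 0.292 to 0.985 in testis (2.70 against all 4, limma adjusted p = 2.18e-09). Pcdhb9 (2.75, limma adjusted p = 1.5e-08) had 7.27 to 16.4 TPM in brain and 4.91 to 6.71 in lung, without overlap, whereas Pcdhb16 (2.19, limma adjusted p = 2.09e-08) had 8.42 to 13.7 in brain and 6.24 to 8.46 in lung, which touched. Pcdhb14 had 9.80, 10.1 and 10.2 TPM in brain and at most 4.22 elsewhere, in lung (2.19, limma adjusted p = 2.27e-10).

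Testis carried alpha symbols, and lung carried 1 of them, Pcdha4. Pcdha3 had 3.06, 3.32 and 5.44 TPM in brain, against 4.31, 9.50 and 8.53 in testis, and was lower in brain than in testis (-0.75, limma adjusted p = 0.00916), while 9 of 9 heart, liver and lung libraries listed at most 0.114 TPM. Pcdha4 had 62.7, 72.6 and 72.8 TPM in brain, 23.3, 43.6 and 37.3 in testis, 14.0, 9.05 and 12.0 in lung, and at most 0.557 in heart and liver. Pcdhb1, the first gene of the beta array and under 1 TPM in every brain library, had 1.85, 1.94 and 2.18 TPM in testis (brain minus testis -1.15, limma adjusted p = 9.49e-07), and was the 1 member that did not differ past the threshold between brain and the 4 tissues (0.01, limma adjusted p = 0.962). The difference between brain and the other tissues changed between 14 and 20 weeks in 6 of the 36 members, a share close to the 15.7% of all genes (limma, interaction term; the 14-week side is 1 library per tissue, so the spread comes from the 20-week pairs).

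Of the related lists, 13 of 18 cohesin, CTCF and chromatin genes were higher in brain and 2 lower, 13 of 16 cytoplasmic partners higher and none lower, 15 of 17 classical cadherins and catenins higher and 2 lower, and 9 of 11 Fat, Dachsous, Celsr and calsyntenin genes higher and 1 lower. Over all genes 45.4% were higher and 28.0% lower. The lists' medians were 0.67, 1.59, 3.72 and 3.20, beside 0.34 over all genes.

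Between compartments each condition had 1 library, so no difference has a replicate check, and no test was made. In synaptosomes, a fraction of pinched-off nerve terminals, Pcdh1 had 225 TPM, against 111 TPM in homogenate, Pcdh19 had 72.8 against 35.9, Pcdh8 44.6 against 25.0, Pcdh17 53.6 against 33.4, and Pcdhga9 294 against 166. Of the 34 members at 1 TPM or more in either library 23 were above and 11 below homogenate, and 1, Pcdh1, was past 2-fold upward on the log2(TPM + 1) scale and none downward, beside 5.83% and 14.0% of all genes. The median difference was 0.47 for the non-clustered and 0.14 for the clustered genes, with -0.29 for all genes. Of the non-clustered genes at 1 TPM or more, Pcdh18, Pcdh15 and Pcdh20 were lower in the synaptosome library, with differences of -0.35 to -0.22.

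Markers of other cells were present in the synaptosome library: the 6 astrocyte markers summed to 8417 TPM in synaptosomes, against 1504 TPM in homogenate, the microglial ones to 970 against 275, and the neuronal ones to 2128 against 4583. Their part in these values was not tested.

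In mouse CA1 the neuropil (the layer of dendrites and axons) was set against the somata layer. Of the 23 clustered genes at 1 TPM or more, 20 were lower in neuropil, with a median of -0.35, whereas 7 of 12 non-clustered genes were higher, with a median of 0.16, beside 0.00 over all genes. Pcdh18 was past 2-fold higher, at 7.56 TPM in neuropil against 3.03 in somata, and no member was past 2-fold lower; over all genes 8.22% were past 2-fold higher and 0.97% lower. Pcdhb17 had 9.70 TPM in neuropil and 15.7 in somata, Pcdhb12 5.02 and 8.66, and Pcdha4 52.5 and 72.8.

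In the rat CA1 pair 9 of 12 non-clustered genes had the same sign as in mouse. The share of all genes with the same sign was not computed, so this count has no background. The 9 include small differences, such as 0.08 in mouse and 0.16 in rat for Pcdh10. Pcdh11x had 10.2 TPM in rat neuropil against 4.84 in rat somata, and 7.48 against 4.49 in mouse. Pcdh15 had 9.01 against 3.71 in rat and 11.4 against 7.88 in mouse, and Pcdh18 7.53 against 3.10 in rat. Pcdh20 was lower in neuropil in both species, at 55.0 against 79.9 in rat and 74.2 against 98.4 in mouse, and Pcdh8 was higher in rat neuropil (31.5 against 23.6) but lower in mouse (15.7 against 19.5).

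Clustered genes showed no common side in rat, with 16 of 40 higher in neuropil and 24 lower (median -0.17, beside 0.09 over all genes). Of the 20 clustered symbols shared with mouse 10 had the same sign. These 20 include Pcdhb1, under 1 TPM in both layers of both species, and a shared symbol may not stand for the same exons. Pcdhga9, for example, had 128 and 120 TPM in mouse neuropil and somata but 5.30 and 3.16 in rat. In rat 2 members, Pcdh15 and Pcdh18, were past 2-fold higher and none lower, beside 8.35% and 1.47% of all genes. Pcdhac2, a C-type alpha isoform known to be expressed without the choice that governs the others, had 35.2 TPM in neuropil and 47.7 in somata. Markers of several other cell types were higher in the neuropil libraries. Endothelial and mural markers summed to 478 TPM against 183 in mouse and 484 against 219 in rat. Astrocyte markers summed to 3260 against 1277 in mouse and 6342 against 2920 in rat. Oligodendrocyte precursor markers summed to 150 against 64.4 in mouse and 293 against 141 in rat. Microglial and oligodendrocyte markers were also higher in both species. Neuronal markers were lower in neuropil in both species, and choroid plexus and meninges markers lower in rat alone. The part of these markers in the differences was not tested.

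**Figure D4:**
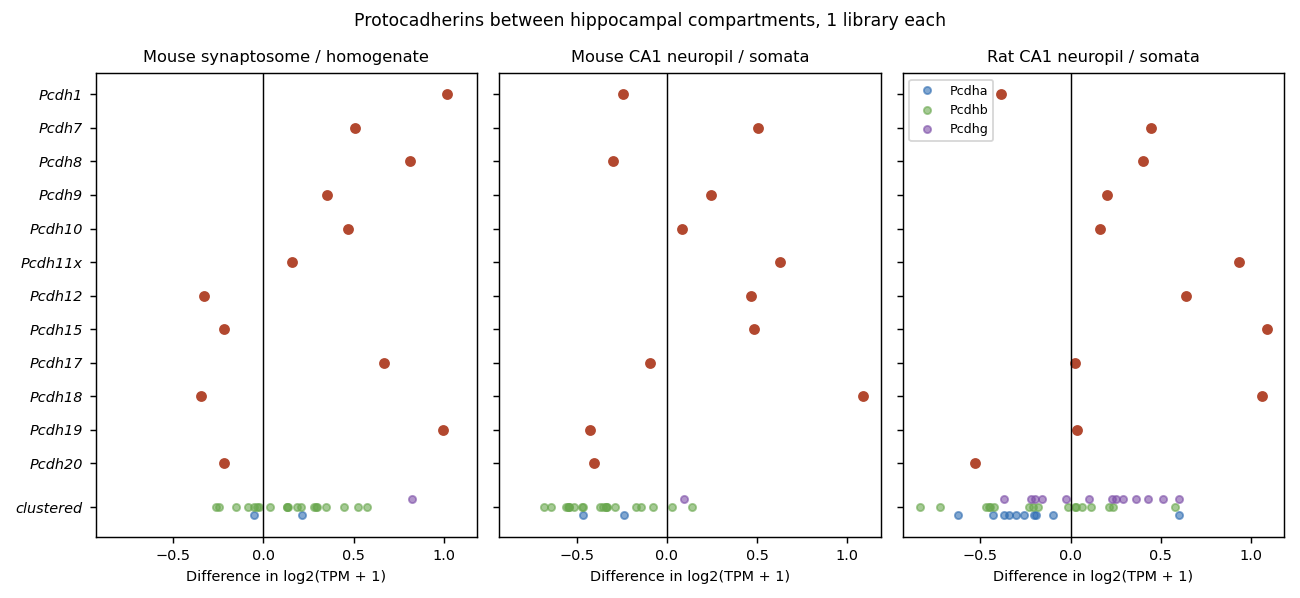
Difference in log2(TPM + 1) (horizontal axis) for mouse synaptosome over homogenate, mouse CA1 neuropil over somata and rat CA1 neuropil over somata, 1 library each. Each non-clustered gene has a row and the clustered genes share the lowest one; Pcdh18 reaches 1.09 in mouse and 1.06 in rat neuropil, and 20 of 23 clustered genes lie below 0 in mouse neuropil.

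Several members had lower levels after poly(A) selection. In 14-week brain Pcdh7 had 31.4 TPM in the poly(A)-selected library against 108 in the rRNA-depleted one, Pcdh9 47.2 against 154, and Pcdh11x 6.00 against 22.7, while Pcdhga9 had 324 against 195. Of 34 members at 1 TPM or more, 1 (Pcdhb3) was past 2-fold higher and 11 past 2-fold lower, beside 9.07% and 15.9% of all genes, and the median was -0.72 against -0.25 over all genes. Tissue and age were the same, with 1 library each.

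In rat cultures bicuculline, which blocks GABA-A receptors and so raises network activity, left the clustered genes without a call and raised 3 non-clustered ones. PCDH8 (symbols as in the rat table), whose protein is known in rat neurons as arcadlin and for triggering uptake of N-cadherin from the membrane, had 270 and 327 TPM under bicuculline, against 15.0 and 25.8 TPM in control cultures. The groups were far apart, at 298 ± 40.3 TPM against 20.4 ± 7.64 TPM (SD, n = 2 each), a difference of 3.84 ± 0.27 (SE; limma adjusted p = 0.00674). It passed with any 1 of the 4 libraries left out.

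**Figure D5:**
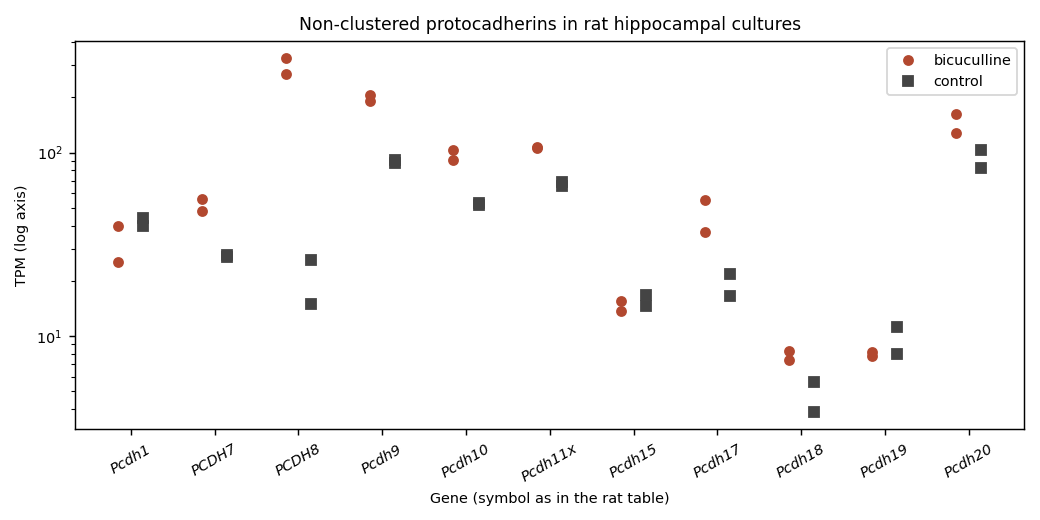
TPM (log axis) of 11 non-clustered protocadherins in rat hippocampal cultures, 2 bicuculline libraries (circles, left) and 2 control libraries (squares, right) per gene. PCDH8 is at 270 and 327 TPM under bicuculline and 15.0 and 25.8 in control.

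Pcdh9 had 206 and 192 TPM under bicuculline, against 91.0 and 87.6 in control (1.15 ± 0.12, SE; limma adjusted p = 0.0165). Pcdh10 had 90.9 and 104 TPM, against 52.0 and 53.3 in control (0.87 ± 0.13, SE; limma adjusted p = 0.0432). Treated and control libraries did not overlap for either gene, but without either bicuculline library only 1 member, PCDH8, remained called, and Pcdh10 was also lost without the first control library. The other non-clustered genes with an unadjusted p under 0.05 were PCDH7, Pcdh11x, Pcdh17, Pcdh18 and Pcdh20, which were all higher, by 0.63 to 1.21, and did not pass after adjustment. With the replicate number as a block in the fit more members rose, all of them non-clustered.

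In all, 3 of 51 rat members rose and none fell, beside 2.06% and 0.51% of 13341 genes, and without the expression filter 1 rose. Of 11 non-clustered genes tested 8 were above 0, with a median of 0.66, while of 40 clustered genes 0 passed by limma, 0 had an unadjusted p under 0.05, and 2 were above 0, with a median of -0.20, beside -0.07 over all genes. Pcdhac2 had 42.5 and 42.3 TPM under bicuculline, against 51.6 and 39.6 in control (-0.09, limma adjusted p = 0.839). No gene of the cohesin and chromatin, cytoplasmic partner or Fat and Celsr lists passed, and Cdh9 and Cdh20 rose among 17 classical cadherins and catenins. Neuronal markers summed to 3709 to 4107 TPM under bicuculline and 3898 to 4406 in control, astrocyte markers to 6839 to 7433 and 7072 to 10340; their part was not tested.

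The circRNAs of these genes were few and shallow. The deposited values are reads scaled to library size (RPM), from which whole reads were recovered, and mouse rRNA-depleted libraries held 1231 to 43523 circRNA reads. The 28 Pcdh circRNAs had 364 reads over all mouse libraries, 9 of them with 10 reads or more, and intervals from these reads cover counting error only. Their hosts were Pcdh15 (10 circRNAs), Pcdh19 (4), Pcdh11x (3), Pcdha4 (3), Pcdh17, Pcdh9 and Pcdhga9 (2 each), Pcdh10 and Pcdh7 (1 each), and no Pcdhb gene had one.

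The most abundant was a Pcdh17 circRNA at mm9 chr14:84877130-84877494, spanning 365 bases, with 90 reads in 17 libraries. It had 2 and 2 reads at E18, 6 and 2 at P1, 6 and 10 at P10, and 7 and 12 at P30, and the E18 and P30 libraries did not overlap (1.80, limma adjusted p = 0.066). A Pcdh7 circRNA at chr5:58304395-58333501 followed with 61 reads, 0 and 2 at E18, 0 and 0 at P1, 3 and 4 at P10, and 7 and 10 at P30 (2.44, limma adjusted p = 0.0689). A Pcdh19 circRNA at chrX:130159808-130215947 had 43 reads, from 2 to 4 in each library of the age series, with 3 and 3 at P30 and 4 and 3 at E18 (-0.14, limma adjusted p = 0.944).

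Next in reads came a Pcdh15 circRNA at chr10:72946609-72952997 with 23, another at chr10:73673112-73693125 with 19, a Pcdh11x circRNA at chrX:117513011-117515506 with 15, others of Pcdh15 at chr10:73944782-73967553 and Pcdh19 at chrX:130159808-130167492 with 12 each, and a further one of Pcdh15 at chr10:72946609-72952699 with 10. Those of Pcdh17 at chr14:84877130-84933502 and Pcdh9 at chr14:93952638-93959796 had 8 each. The Pcdh11x circRNA had 0 and 0 reads at E18, 1 and 0 at P1, 3 and 3 at P10, and 1 and 3 at P30.

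Between P30 and E18, 15 of the 28 circRNAs were above 0 in 2 or more libraries; none was higher and 1 was lower, beside 6.27% and 1.44% of 14200 circRNAs. That 1 lay within the alpha array, at chr18:37179749-37319007, assigned to Pcdha4, and had 1 read in each E18 library and none elsewhere (-1.01). It met the filter of 2 libraries only through E18, so its direction was fixed by the filter and the call is no support for a fall. Neither edgeR on the recovered reads nor limma without any 1 of the E18 or P30 libraries called it. All Pcdh circRNAs together had 14 and 12 reads at E18, 17 and 8 at P1, 27 and 36 at P10, and 28 and 37 at P30. As a share of circRNA reads this was 0.0663% and 0.0691% at E18, 0.0698% and 0.0502% at P1, 0.159% and 0.184% at P10, and 0.0913% and 0.123% at P30. The P10 libraries had the highest shares, but their exact 95% intervals, from 0.105% and 0.129% up, overlapped those of P30, up to 0.132% and 0.169%. In summed RPM the order differed, with 15.6 and 17.6 at P10 and 16.2 and 22.6 at P30.

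In adult tissues 4 Pcdh circRNAs were above 0 in at least 3 of the 15 libraries and could be tested. Of these, 3 were called higher in brain, beside 47.7% higher and 2.82% lower of 5594 circRNAs. The 3 brain libraries alone can meet that filter, which favours circRNAs high in brain. The Pcdh15 circRNA at chr10:73673112-73693125 (4, 1 and 1 reads in brain and 0 elsewhere, a difference of 1.69) met it only so. Its direction was fixed by the filter, and its call is no support. The others called were those of Pcdh17 (2, 2 and 2 in brain, and 1 each in 1 heart and 1 lung library, 1.74, limma adjusted p = 0.000119) and Pcdh7 (14, 2 and 0 in brain, and 2 in 1 heart library, 1.89, limma adjusted p = 0.0112). Neither would have met the filter without brain. The count called higher in brain was 1 without the 14-week brain library and 0 under scaling to equal medians. Brain libraries had 27, 17 and 5 Pcdh circRNA reads, and the other 12 had 0 to 4. These libraries differed in circRNA reads, and 14-week heart had 4 of 5232, or 0.0765%, above the 0.0355% of 1 brain library. The 3 liver libraries had 0 of 2120, 1442 and 1231 circRNA reads, which by the limit of 3 reads allows shares of up to 0.142%, 0.208% and 0.244%, above the brain shares of 0.126%, 0.103% and 0.0355%. Summed over 3 libraries, brain had 49 of 52073 reads, or 0.0941% (exact 95% interval 0.0696% to 0.124%). Liver had 0 of 4793, which allows up to 0.0626% by that limit (exact 95% upper bound 0.0769%). Heart had 5 of 9271, or 0.0539% (0.0175% to 0.126%), and lung 1 of 7689, or 0.013% (0.000329% to 0.0724%). Testis had 4 of 34945, or 0.0114% (0.00312% to 0.0293%). Of these summed intervals only that of testis lay apart from that of brain. The sums treat the 3 libraries of a tissue as 1 sample, so their intervals leave out the spread between libraries. Single brain libraries differed, with intervals of 0.0115% to 0.0829% in the second 20-week library and 0.083% to 0.183% at 14 weeks. The former overlapped the summed testis interval.

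Synaptosomes held 51 Pcdh reads of 43523, or 0.117% (exact 95% interval 0.0873% to 0.154%), and homogenate 42 of 36520, or 0.115% (0.0829% to 0.155%), so the intervals of these 2 libraries overlapped. Neuropil had 20 of 24376 (0.082%) and somata 13 of 13963 (0.0931%) in mouse. The poly(A)-selected brain library held 127 circRNA reads in all and none of a Pcdh gene.

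Some circRNAs had a counterpart of the same host and nearly the same span in rat (rn5), which had 51 Pcdh circRNA reads in all. The 365-base Pcdh17 circRNA matched one of 365 bases at chr15:71214715-71215079 with 6 reads, the Pcdh11x circRNA of 2496 bases matched chrX:92588466-92590961 with 3 reads, a further Pcdh11x circRNA of 584 bases matched one of 584 bases with 1 read, and the 7685-base Pcdh19 circRNA matched one of 7687 bases at chrX:104273261-104280947 with 3 reads. These were the 4 mouse circRNAs with a rat one within 5 bases in span; 12 and 12 Pcdh reads in bicuculline libraries, against 7 and 8 in control libraries, were too few to compare single circRNAs.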

How the data were processed

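Values are the authors' deposited tables: genes in TPM, circRNAs in a table named TPM that behaves as reads scaled to library size (RPM) per the deposited values, since 99.64% or more of a library's values were whole multiples (within 0.1) of its smallest one. Per the submitters' processing notes, CASAVA 1.8.2, TopHat2 2.0.6 and Cufflinks 2.2.1 were used; the circRNA caller and the exons counted per gene are not given in the sources used here. The authors' lists give each circRNA a score, used only for position and strand (mm9 and rn5).

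Genes were tested with limma 3.58.1 (R 4.3.3) on log2(TPM + 1) with a mean-variance trend, at an adjusted p under 0.05, in 1 fit per set: 8 hippocampal, 15 adult, 4 rat culture libraries. CircRNAs were tested on log2(RPM + the median value of 1 read: 0.578 hippocampus, 1.18 tissues); edgeR 4.0.16 on recovered reads was an alternative. Filters are given with the results. Depth of gene libraries is unknown. Members and lists were chosen with earlier results of these data known. All non-clustered genes, C-type isoforms, the 3 most abundant of each cluster and the 2 most changed in each direction are named, plus the 10 circRNAs with most reads. The fits were tested on simulated data. Alternatives were pseudocounts, no filter, scaling, age, 20-week libraries alone, a replicate block and leaving out libraries. The long-read P30 sample was not analysed here.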

Additional observations from a re-analysis of the deposited data

Results flagged for a closer look

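The brain difference of 6 of 36 members was not the same at 14 and 20 weeks (interaction term in limma, Benjamini-Hochberg over 18966 genes). Over all genes 15.7% passed, so the members' share is near the background. The 14-week side has 1 library per tissue, assumed to vary like the 20-week pairs, from which the spread comes. The difference between brain and the other 4 tissues, at 14 weeks minus 20 weeks on the log2 scale, was 1.80 for Pcdh8 (limma adjusted p = 0.00592), whose brain libraries had 19.3 TPM at 14 weeks against 3.44 and 5.93 at 20 weeks, and 1.03 for Pcdh1 (limma adjusted p = 0.0295). It was 0.84 for Pcdhb13 and -0.96 for Pcdhb9, -0.69 for Pcdhb3 and -0.68 for Pcdhb19.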

How the results depend on the processing

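Over the P30 and E18 libraries the count of members that rose, 11, was 7 without the filter and 6 to 12 when single libraries were left out; the count that fell, 3, was 7 with equal medians, 8 with a replicate block and 2 to 6 with a library left out. From P1 to P10 the rise of 4 was 2 without the filter, 7 with the replicate block and 2 to 6 with a library left out, and the fall of 2 was 0 without the filter and 0 to 2 with a library left out. From P10 to P30, 4 rising became 2 with equal medians and 2 to 4 with a library left out, and 3 falling became 6 with equal medians and 2 to 4 with a library left out. In rat, 3 rising became 1 without the filter, 8 with the replicate block (all non-clustered) and 1 to 4 with a library left out. Correlations of replicate deviations between hippocampal ages were 0.0555 to 0.351, all above 0, which does not settle whether replicate numbers pair these libraries. In rat the correlation was 0.588, with only 2 pairs, so pairing there is not settled either. Tissue correlations were 0.0159 to 0.0982. The replicate block left the tissue counts at 34 and 1. The brain counts were 33 to 34 and 1 with a library left out. For circRNAs, the 1 lower at P30 became 0 by edgeR with either scaling, 0 without the filter and 0 to 1 with a library left out, and 1 was higher with a pseudocount of 5 reads; the 3 higher in brain became 6 without the filter, 0 with equal medians, 1 at 20 weeks alone and 1 to 4 with a library left out, and the hippocampal circRNA fit with equal medians could not be run. Single genes that changed sign were, at P30 against E18, Pcdhga9 (-0.198 with equal medians; -0.20 to 0.28 with a library left out) and Pcdha4 (-0.40 to 0.27); at P30 against P10, Pcdh7 (-0.0662 with equal medians; -0.0451 to 0.343) and Pcdh10 (-0.167 to 0.052); at P10 against P1, Pcdh19 (-0.106 to 0.0046); at P1 against E18, Pcdh9 (-0.27 to 0.68), Pcdh10 (-0.15 to 0.57), Pcdh18 (-0.55 to 0.0242) and Pcdh8 (-0.47 to 0.35); and in brain Pcdh1 (-0.357 with equal medians) and Pcdhb1 (-0.0268 with a pseudocount of 5 TPM, -0.0669 with equal medians, -0.155 to 0.104 with a library left out). Of these Pcdh1 alone had been called. The cause was not tested. Counts at 20 weeks alone were 31 and 1 for genes.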
